A study of Mus musculus with 2 samples.

Results

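The genes described here belong to the GABAergic lineage of the midbrain and were measured in total RNA from mouse midbrain at embryonic day 13.5. They were chosen by name, and the choice used no measured value, although earlier results of these libraries were known. All 10 of them matched an entry among the 43346 genes of the deposited tables. They comprise 7 regulators, the zinc finger factors Gata2 and Gata3, the helix-loop-helix factors Tal1, Tal2 and Helt, the GATA cofactor Zfpm1 and the HMG-box factor Sox14. The other 3 are transmitter genes, Gad1 and Gad2 for the enzymes that make GABA and Slc32a1 for the transporter that loads it into vesicles.

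The series held 1 group of 2 libraries, biological replicates 2 and 1, each from healthy midbrain of B6NCrl embryos with both sexes pooled. The labels gave the libraries separate biosample entries and the same donor entry, and they listed 10 ng of starting RNA above 200 nt, added spike-in RNA and no treatment. There was no other tissue, age or genotype, so levels were compared between genes within a library and each gene was compared between the libraries as replicate 2 over replicate 1. With 2 libraries no test was run, and each SD covers only the spread between them.

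GABA is the main inhibitory transmitter of the brain, and most inhibitory neurons of the midbrain are born from progenitors that line its ventricle. In the mouse, Gata2 and Tal2 act as selectors as these cells leave the cycle, and loss of either turns many precursors toward a glutamatergic fate. Helt acts in the progenitors, while Gata3, Tal1, Zfpm1 and Sox14 mark the young neurons or subsets of them.

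Sequences at the alternative starts of Gata2 and Tal1 are shown first because the libraries assign RNA to both starts of each gene. Each window holds 250 bases before and 50 bases after a RefSeq start on GRCm38.p6, given 5′ to 3′ on the strand of the gene. Capitals mark a GATA site, which is GATA preceded by A or T and followed by A or G, or the E-box CAGATG bound by Tal factors with E-proteins. Both were sought on either strand, and each match shown lies on the reverse strand. The windows lie at chr6:88193641-88193940 and chr6:88198414-88198713 for Gata2 and at chr4:115056176-115056475 and chr4:115057561-115057860 for Tal1, all on the plus strand.
Gata2, distal start: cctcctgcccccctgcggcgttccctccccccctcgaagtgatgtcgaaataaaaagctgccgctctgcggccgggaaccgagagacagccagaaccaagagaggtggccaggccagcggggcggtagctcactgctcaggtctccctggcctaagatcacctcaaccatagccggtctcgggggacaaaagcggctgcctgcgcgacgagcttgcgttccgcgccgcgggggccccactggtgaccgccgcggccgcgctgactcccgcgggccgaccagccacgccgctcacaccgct
Gata2, proximal start: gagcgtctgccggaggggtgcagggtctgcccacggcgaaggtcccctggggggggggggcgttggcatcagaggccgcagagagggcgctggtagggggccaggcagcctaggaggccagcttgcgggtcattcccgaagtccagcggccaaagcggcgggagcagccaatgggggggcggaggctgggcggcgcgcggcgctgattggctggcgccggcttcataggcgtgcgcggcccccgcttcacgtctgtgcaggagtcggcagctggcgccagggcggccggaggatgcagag
Tal1, first start: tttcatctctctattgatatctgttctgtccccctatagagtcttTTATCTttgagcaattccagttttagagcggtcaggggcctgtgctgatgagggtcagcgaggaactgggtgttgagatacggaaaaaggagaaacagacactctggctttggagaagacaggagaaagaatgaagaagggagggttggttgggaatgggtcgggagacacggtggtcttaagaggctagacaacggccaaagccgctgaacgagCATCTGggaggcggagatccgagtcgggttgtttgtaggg
Tal1, second start: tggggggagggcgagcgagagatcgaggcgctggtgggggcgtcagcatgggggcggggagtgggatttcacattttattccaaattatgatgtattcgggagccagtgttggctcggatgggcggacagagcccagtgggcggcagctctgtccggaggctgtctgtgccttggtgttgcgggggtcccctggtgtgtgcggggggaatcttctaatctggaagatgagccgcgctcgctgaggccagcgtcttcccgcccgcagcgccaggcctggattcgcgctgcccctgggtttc
The first Tal1 window held 1 GATA site and 1 Tal E-box, and neither motif was found in the second Tal1 window or in the Gata2 windows. Among the 12 windows of the 10 genes, 4 held a GATA site (Gata3, Sox14, Slc32a1 and the first of Tal1) and 2 held a Tal E-box (Gad2 and the first of Tal1). Over all 32851 RefSeq windows of the same length, 29.8% held a GATA site and 17.2% a Tal E-box. A TATA box (TATAAA on the strand of the gene) was present in 1 of the 12 windows, that of Tal2, and in 8.32% of all windows. The windows of these genes had a median GC content of 63.8% and 21.5 CpG, against 52.7% and 7 CpG over all windows. The window richest in CpG was that of Zfpm1, with 37, and the poorest was the first of Tal1, with 11. A match of letters is a description of the window and does not show that a factor binds there.

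Replicate 2 held 40215359 and replicate 1 held 31436613 expected reads on genes. The labels give them as separate samples, and their counts differed by more than sampling noise alone (chi-square per degree of freedom 7.2). Of 7 genes of midbrain identity 7 were detected, led by Otx2 at 117 TPM in replicate 2 against 104 TPM in replicate 1, while 0 of 7 hindbrain Hox genes reached 1 TPM. Of the lists described below, 10 of 11 forebrain regulators and 3 of 6 hindbrain and spinal regulators were nevertheless detected.

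All 10 genes were detected, that is at a deposited TPM (a length-normalised transcript level scaled to one total per library) of at least 1 in both libraries. The same was true of 34.3% of all genes. The levels ran over a wide range, between Gata3 at 93.1 TPM in replicate 2 and 77.6 TPM in replicate 1 and Zfpm1 at 1.65 and 1.24 TPM. Placed among the 14878 detected genes by mean TPM, Gata3 stood at the 86.6th percentile and Zfpm1 at the 3.63rd. The median detected gene had a mean of 16.45 TPM, so that Gata3, Sox14, Gad2, Gad1, Tal2 and Gata2 lay above it and Helt, Tal1, Slc32a1 and Zfpm1 below it. In bulk tissue, fewer cells of a type and less RNA per cell cannot be told apart.

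**Figure D1:**
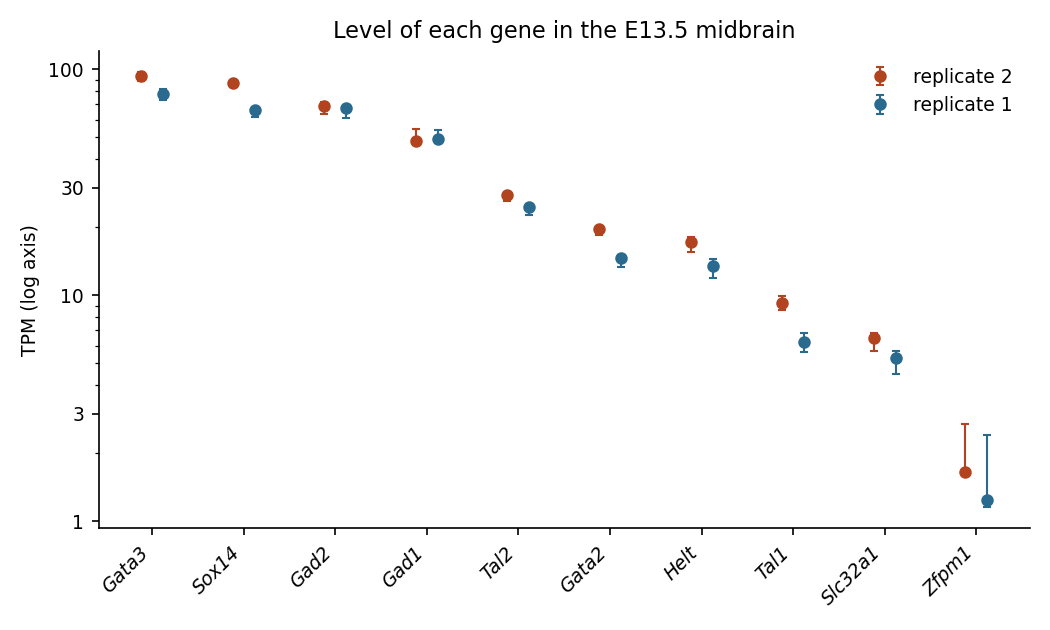
Deposited TPM (log axis) of the 10 genes in replicate 2 and replicate 1, ordered by their mean. Bars are the deposited bounds of the posterior estimate, whose level is not stated and which need not centre on the TPM. Gata3, Sox14 and Gad2 are highest, at 65.9 to 93.1 TPM, and Zfpm1 is lowest, at 1.24 to 1.65 TPM.

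Gata3 was the most abundant of the regulators and Gata2, which precedes it in development, stood well below it. Gata3 (chromosome 2, 9857078 to 9890034, minus strand) averaged 85.4 ± 11.0 TPM (SD, n = 2), from 6822 reads in replicate 2 and 4226 in replicate 1. Gata2 (chromosome 6, 88193891 to 88207032, plus strand) had 19.8 TPM in replicate 2 and 14.6 in replicate 1, from 1631 and 902 reads. The log2 difference of Gata2 from Gata3, on the TPM + 0.1 scale used for all pairs, was −2.23 in replicate 2 and −2.40 in replicate 1. Its mean of −2.32 ± 0.12 (SD, n = 2) puts Gata3 4.98-fold above Gata2, and their ranges did not overlap. Gata1, the erythroid member of the family, had 0.19 TPM in replicate 2 and 0.25 in replicate 1, from 9 reads in each library, while Gata4, Gata5 and Gata6 had at most 0.15 TPM. Gata2 exceeded Gata1 by 5.74 ± 0.50 on the log2 scale, a size that rests on the pseudocount because Gata1 was near 0.

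Another 3 genes are annotated within or across Gata3, and the sources used here do not say if reads were counted by strand. The expected counts of Gata3 were whole numbers in both libraries, with no fraction of a read, which does not by itself show whether reads were shared. The overlapping genes are 4930412O13Rik on the other strand at 3.06 TPM in replicate 2 and 1.44 in replicate 1, 9230102O04Rik on the same strand at 2.74 and 4.34 TPM, and the antisense gene Gm13256 at 0.62 and 0.47 TPM. Each stood far below Gata3 itself.

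Tal2 was the more abundant of the Tal pair. Tal2 (chromosome 4, 53779705 to 53788712, plus strand), needed for GABAergic fate in the mouse midbrain, had 27.9 TPM in replicate 2 and 24.6 in replicate 1. Tal1 (chromosome 4, 115056426 to 115071755, plus strand), better known for its part in blood formation, had 9.29 TPM in replicate 2 and 6.20 in replicate 1. The log2 difference of Tal1 from Tal2 was −1.58 in replicate 2 and −1.97 in replicate 1, with a mean of −1.78 ± 0.28 (SD, n = 2), so that Tal2 was 3.42-fold higher. Lyl1, the near relative of Tal1 in blood and vessels, had 1.91 and 1.70 TPM, and Tal1 exceeded it by 2.02 ± 0.29 on the log2 scale. Helt (chromosome 8, 46292039 to 46294671, minus strand), a repressor of the Hes/Hey kind, had 17.2 TPM in replicate 2 and 13.6 in replicate 1. Its log2 difference from Tal2 was −0.78 ± 0.11, and their ranges did not overlap.

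Sox14 (chromosome 9, 99874106 to 99876170, minus strand) was close to Gata3 in level. It had 87.5 TPM in replicate 2 and 65.9 in replicate 1, from 4566 and 2563 reads. Its log2 difference from Gata3 was −0.09 in replicate 2 and −0.24 in replicate 1 (mean −0.16 ± 0.10), lower in each library, but the ranges of the 2 genes overlapped. Zfpm1 (chromosome 8, 122282141 to 122337251, plus strand) was measured from only 145 reads in replicate 2 and 82 in replicate 1. Its relative Zfpm2, the other GATA cofactor of this kind, had 13.3 TPM in replicate 2 and 11.9 in replicate 1, so that Zfpm1 lay 8.28-fold below it (−3.05 ± 0.15 on the log2 scale). The long gene Gm20388 spans Zfpm1 on the same strand, with 5.05 TPM in replicate 2 and 9.95 in replicate 1. The expected counts of Zfpm1 were whole numbers in both libraries, and those of Gm20388 were 520.15 in replicate 2 and 768.81 in replicate 1. Whether reads were shared between the 2 genes was not tested. The authors' posterior mean TPM for Zfpm1 was higher than its TPM, at 2.09 in replicate 2 and 1.73 in replicate 1, so its level depends on which estimate is read.

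Of the transmitter genes, both enzyme genes stood above the median detected gene when summed over all transcripts, and the vesicular transporter below it. Gad2 (chromosome 2, 22622205 to 22693874, plus strand) had 69.1 TPM in replicate 2 and 67.2 in replicate 1. Gad1 (chromosome 2, 70553072 to 70602014, plus strand) had 48.2 TPM in replicate 2 and 49.2 in replicate 1. Summed over all transcripts, the log2 difference of Gad1 from Gad2 was −0.48 ± 0.05 (SD, n = 2), with no overlap of ranges. Slc32a1 (chromosome 2, 158610767 to 158615748, plus strand) had 6.47 TPM in replicate 2 and 5.29 in replicate 1. This was 11.5-fold below Gad2 summed over all its transcripts (−3.52 ± 0.17), a sum that includes non-coding RNA, as described below. Gad1os, a gene antisense to the start of Gad1, had 1.09 and 1.20 TPM, and the antisense gene Gm14205 at Slc32a1 and the miRNA gene Gm23636 within Gad2 were listed at 0.

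Ordered by mean TPM the genes ran Gata3, Sox14, Gad2, Gad1, Tal2, Gata2, Helt, Tal1, Slc32a1 and Zfpm1. The ranges of 4 neighbouring pairs in this order overlapped, those of Gata3 with Sox14, Sox14 with Gad2, Gata2 with Helt and Tal1 with Slc32a1. Sox14 stood above Gad2 in replicate 2 and below it in replicate 1, so their order is not settled. The other neighbours were separated in both libraries.

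Transcript shares differed widely between the genes. Tal2, Helt and Slc32a1 have 1 annotated transcript each, and Zfpm1 was assigned wholly to Zfpm1-201, the transcript for its full protein, although the authors' posterior mean gave that transcript 76.1% in replicate 2 and 69.9% in replicate 1. In each of the 7 genes with more than 1 transcript the same transcript led in both libraries, as it did in 92.8% of all such genes with a TPM of at least 5, a level that Zfpm1 did not reach. Sox14-201 took 98.2% of Sox14 in replicate 2 and 96.7% in replicate 1. Tal1-201, from the first start, took 92.2% of Tal1 in replicate 2 and 98.3% in replicate 1. Tal1-203, from the second start 1385 nt downstream, took 4.36% and 1.72%, from 39.04 and 7.68 estimated reads.

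Gata2 was split almost evenly between its starts. Gata2-202 from the distal start took 50.9% of Gata2 TPM in replicate 2 and 54.3% in replicate 1, and Gata2-201 from the proximal start, 4443 nt downstream in the GENCODE M21 annotation, took 49.1% and 45.7%. The ratio of distal to proximal was 1.04 in replicate 2 and 1.19 in replicate 1, and the deposited bounds of the transcripts overlapped in both libraries. Both encode the same number of codons, 480, and differ in the first exon. In the M21 annotation Gata2-202 has 112 bases that Gata2-201 lacks, and Gata2-201 has 548 of its own. The split depends on reads at these bases. In the mouse the distal first exon is known from blood-forming and neural cells and the proximal one from Gata2-expressing tissues in general. The deposited Gata2-201 is 330 nt shorter than in the later annotation, and the RefSeq start of the proximal window printed above lies 330 nt downstream of the M21 start.

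Gata3-201 took 86.7% of Gata3 in replicate 2 and 86.0% in replicate 1. A non-coding transcript, Gata3-204, which starts 9184 nt upstream and is 344 nt long, took 11.4% and 12.7% of TPM but 1.02% and 1.14% of the gene's reads. TPM divides reads by length, so short transcripts weigh more in a share of TPM than in a share of reads.

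Gad1 differed from the other genes in that its leading transcript is not annotated as coding. Gad1-206 took 53.2% of Gad1 TPM in replicate 2 and 61.1% in replicate 1, with 25.6 and 30.1 TPM. Gad1-201, which encodes the full enzyme of 593 codons, took 23.9% in replicate 2 and 21.6% in replicate 1, with 11.5 and 10.7 TPM. The deposited bounds of the 2 transcripts did not overlap in either library. Among protein-coding genes with more than 1 transcript and a TPM of at least 5, 7.78% were led by a transcript without a coding annotation in both libraries. The transcripts are much alike, since Gad1-206 shares 14 of its 16 exons exactly and 2919 of its 2996 bases with Gad1-201. It starts downstream of the exon with the Gad1 start codon. It has 77 bases that Gad1-201 lacks and lacks 436 bases of Gad1-201, so the split depends on reads at few positions.

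**Figure D2:**
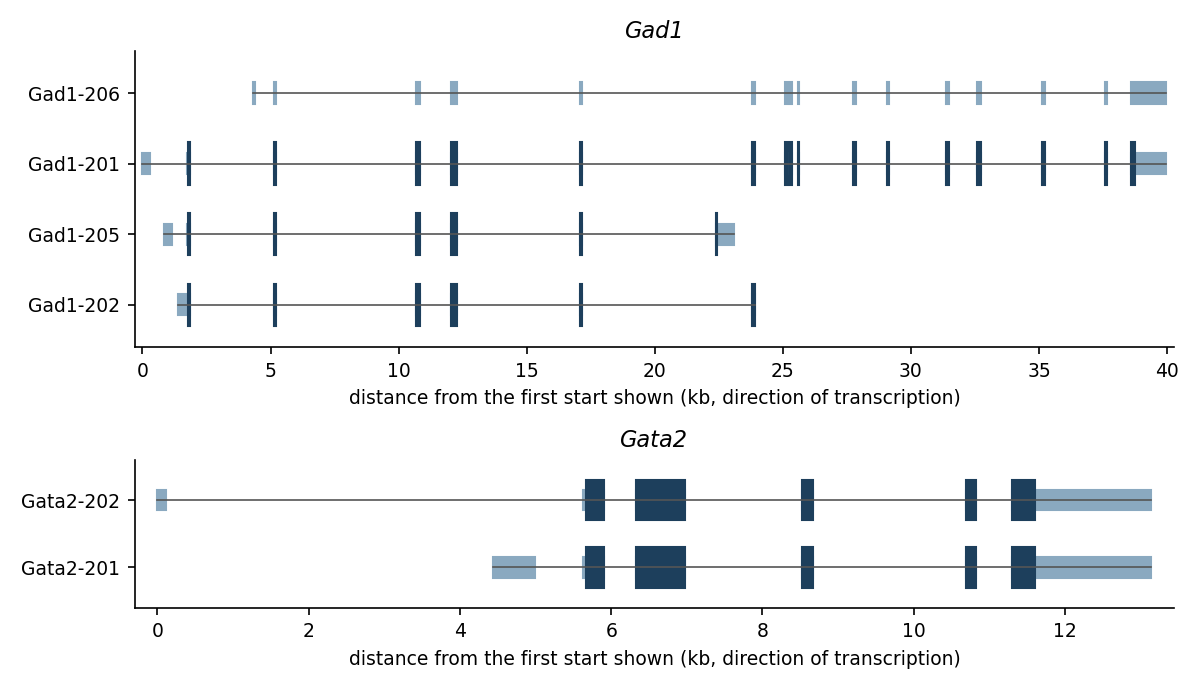
Exons of the Gad1 and Gata2 transcripts with at least 5% of their gene, in kb along the direction of transcription from the first start shown. Thin pale boxes are exons without a coding annotation and tall dark boxes are coding stretches. Gad1-206 has no coding stretch but the same exons as Gad1-201 over most of its length, Gad1-205 and Gad1-202 stop part of the way along, and the Gata2 transcripts differ at their first exon.

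Truncated Gad1 transcripts were also present. Embryonic Gad1 RNA of rodents is known to include an alternative exon that carries a stop codon and ends the protein early. In Gad1-205 the reading frame ends in such an exon after 223 codons. The last 30 bases of that frame lie at chr2:70584427-70584456 on the plus strand of GRCm38, with the stop codon in capitals.
Gad1-205, end of the reading frame: gacatgagggagtgttggttgctacggTGA
Gad1-205 took 12.2% of Gad1 in replicate 2 and 8.48% in replicate 1, with 5.87 and 4.17 TPM. It has 825 bases found in no other Gad1 transcript. With Gad1-203 and Gad1-207, whose frames are also 223 codons long, the share of Gad1 came to 14.8% in replicate 2 and 11.3% in replicate 1. Gad1-202, whose annotated frame is incomplete, took 6.22% and 4.31%. All Gad1 transcripts annotated as protein-coding, Gad1-205 and Gad1-202 included, took 42.3% of Gad1 in replicate 2 and 34.4% in replicate 1. Gad1-203 is not among them, since it is annotated as subject to nonsense-mediated decay.

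Gad2 was divided between Gad2-201, for the enzyme of 585 codons, and the short non-coding Gad2-202. The first took 53.4% of Gad2 in replicate 2 against 52.8% in replicate 1, and Gad2-202 took 46.6% and 47.2%. Gad2-202 is 721 nt long against 5744 nt for Gad2-201 and took 8.77% of the gene's reads in replicate 2 and 8.97% in replicate 1. It shares 589 bases with Gad2-201 and has 132 of its own. Taking only the transcripts for the full enzymes, Gad1 had 11.1 ± 0.61 TPM and Gad2 36.2 ± 1.01 TPM (SD, n = 2). The log2 difference of Gad1 from Gad2 was then −1.67 in replicate 2 and −1.72 in replicate 1, 3.24-fold, a comparison chosen after the shares were seen. The SDs leave out the uncertainty of assigning reads to transcripts, and Gad1-201 has only 2 bases found in no other Gad1 transcript. Its deposited bounds ran from 5.45 to 12.7 TPM in replicate 2 and from 6.15 to 11.7 TPM in replicate 1. The size of the step is therefore less certain than the SDs show. Gad1 was thus below Gad2 on both measures, by a small step over all transcripts and a larger one over the full-length coding ones. Over the full-length coding ones Gad1 also lay below the median detected gene of 16.45 TPM. Slc32a1, with its single coding transcript, averaged 5.88 TPM, so the enzyme genes stood less far above it by this measure.

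**Figure D3:**
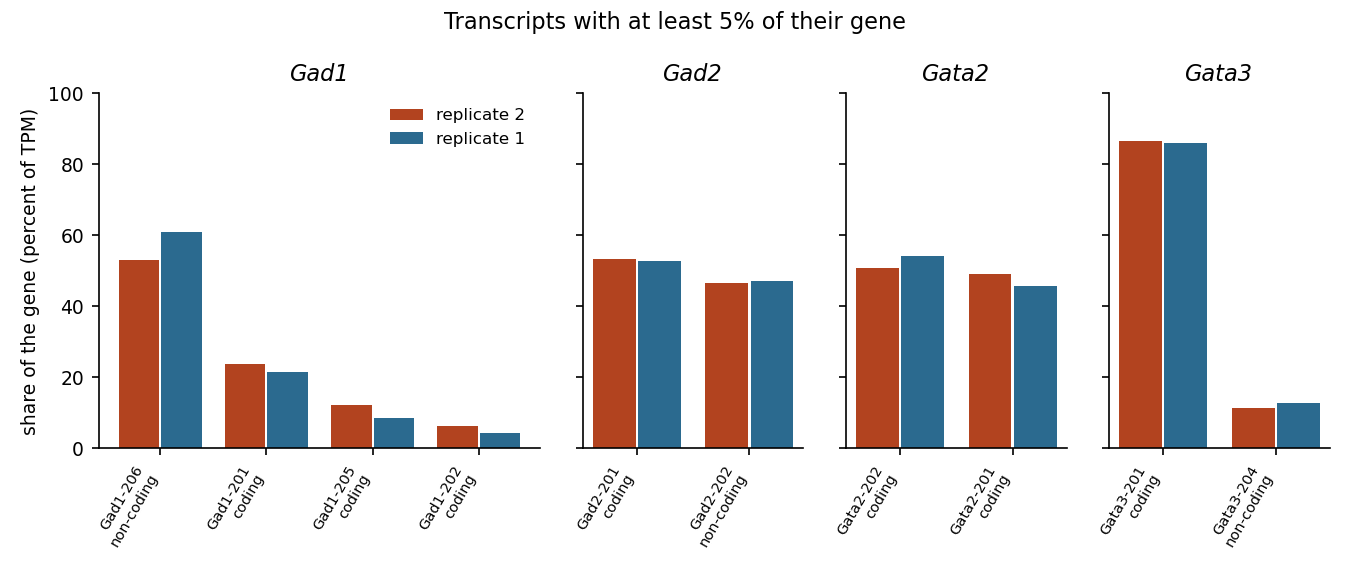
Share of gene TPM (percent) of each transcript with at least 5% in either library, for Gad1, Gad2, Gata2 and Gata3 in replicate 2 and replicate 1. The non-coding Gad1-206 leads Gad1 at 53.2% and 61.1%, and Gata2 is close to evenly divided.

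Other genes of the pathway were taken from fixed lists, with up to 3 of the most abundant of each named. Of 10 genes of GABA metabolism and transport 8 were detected, led by the glutamine transporter Slc38a1 at 56.1 TPM in replicate 2 and 61.1 in replicate 1. Abat, the enzyme that degrades GABA, had 42.8 TPM in replicate 2 and 49.8 in replicate 1. Their median level was 15.01 TPM in replicate 2 and 14.5 in replicate 1. All 12 partners of the Tal and LMO complexes were detected, among them Ldb1 at 113 and 102 TPM, Lmo3 at 109 and 106 TPM and the E-protein gene Tcf12 at 107 and 93.3 TPM. Their median, 64.8 TPM in replicate 2 and 57.2 in replicate 1, stood above both Tal1 and Tal2. Of the 5 other GATA and FOG family genes only Zfpm2 was detected.

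Regulators of earlier steps and of other regions gave a mixed picture. Of 6 progenitor regulators 5 were detected, with the Notch target Hes5 at 270 TPM in replicate 2 and 238 in replicate 1 and Nkx2-2 at 6.83 and 8.56 TPM. Of 6 hindbrain and spinal regulators of GABAergic neurons 3 were detected, Lhx1 at 49.1 and 47.1 TPM, Lhx5 at 44.2 and 37.5 TPM and Pax8 at 4.63 and 4.28 TPM, of which Lhx1 and Lhx5 are also expressed in midbrain. Ptf1a, the cerebellar and spinal selector, had 0.56 TPM in replicate 2 and 0.57 in replicate 1. Of 11 forebrain regulators 10 were detected, led by Dlx1 at 43.96 and 43.7 TPM and Dlx5 at 17.4 and 18.7 TPM. Dlx genes act upstream of Gad1 and Gad2 in forebrain neurons, and what part of the Gad1 and Gad2 RNA came with them was not tested. All 8 peptides and calcium-binding proteins of GABAergic subtypes were detected, with Sst at 148 TPM in each library, Npy at 46.7 and 45.9 TPM and Calb2 at 30.9 and 47.0 TPM.

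**Figure D4:**
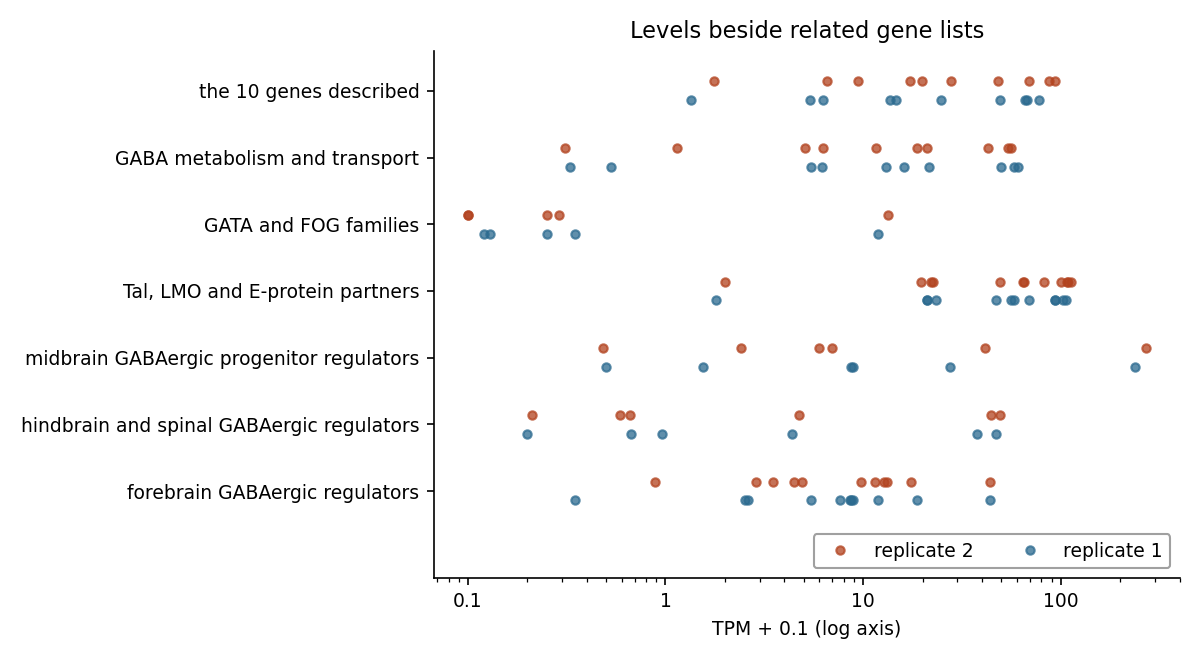
TPM + 0.1 (log axis) of each gene in replicate 2 and replicate 1, for the 10 genes described and 6 fixed lists, 1 point per gene. Of the other GATA and FOG genes 1 of 5 exceeds 1 TPM, while the partners of Tal factors cluster at a median of 64.8 and 57.2 TPM.

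Gata2, Gata3 and Tal1 are also known from blood, vessels and serotonergic neurons, so markers of those cells were measured beside them. Of 15 erythroid and megakaryocytic markers 10 were detected, mostly through globins such as Hba-a2 at 4951 TPM in replicate 2 and 4782 in replicate 1, Hbb-y at 3094 and 3124 TPM and Hba-a1 at 2012 and 1868 TPM, whose near-identical copies share reads. The erythroid regulators Gata1 and Klf1 stayed below 1 TPM. The list summed to 12742 TPM in replicate 2 and 12295 in replicate 1. All 10 endothelial markers were detected, with Cldn5 at 53.4 and 48.5 TPM, and they summed to 153 and 145 TPM. Of 4 serotonergic markers 3 were detected, and all 4 together summed to 15.95 TPM in replicate 2 and 5.04 in replicate 1. The part of these cells in the levels of Gata2, Gata3 and Tal1 was not tested.

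Between the libraries, 0 of the 10 genes differed by at least 2-fold in TMM-scaled expected counts at a mean count of at least 50, against 0.724% of all 14361 genes with that count. Smaller differences ran mostly one way. Of the 10 genes 9 were higher in replicate 2, against 50.9% of all genes, and for 9 the exact 95% interval of the ratio, which covers counting error only, lay wholly above 1, against 20.4% of all genes. Their median log2 ratio was 0.36, where the median over all genes was 0.0037 and the 5th to 95th percentiles ran between −0.29 and 0.40.

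The 5 largest ratios were those of regulators, which make up 7 of the 10 genes. All 7 regulators were higher in replicate 2 under each of 4 scalings, but these scalings differed little, so their agreement adds little. With TMM the regulators had log2 ratios of 0.23 to 0.60 and a median of 0.45. Tal1 had the largest, 1.51-fold (95% interval 1.36 to 1.69), and was the only one of the 10 past 1.5-fold in that direction, as were 2.06% of all genes. Gata2 followed at 1.40-fold (1.29 to 1.52), then Sox14 at 1.38-fold (1.31 to 1.45). Zfpm1 at 1.37-fold had the widest interval, 1.04 to 1.82, and the fewest reads. The enzyme genes differed least, with Gad2 at 1.07-fold (1.03 to 1.11) and Gad1 at 0.984-fold (0.935 to 1.04), whereas Slc32a1 was at 1.26-fold (1.09 to 1.47). The median of the 3 transmitter genes was 0.10 on the log2 scale.

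Other lists moved with these genes in part. The GABA metabolism and transport list had a median log2 ratio of −0.05, forebrain regulators 0.05, endothelial markers 0.14 and erythroid markers 0.14. Midbrain identity genes had a median of 0.22, with 7 of 7 higher in replicate 2. Progenitor regulators had a median of 0.28, with 3 of the 5 with enough reads higher and a range of −0.60 to 0.71. The partners of Tal factors had 0.13, with 10 of 12 higher. A lean toward replicate 2 was thus not limited to the genes described. The serotonergic markers differed most, with a median of 1.81 over the 3 genes with enough reads, and Wnt1, a midbrain identity gene of the isthmus and dorsal midline, was 2.12-fold higher in replicate 2 (1.76 to 2.58). Spike-in RNA took 4.06% of reads in replicate 2 and 2.22% in replicate 1, and it was left out of TMM scaling but is part of the total that the deposited TPM is scaled to. The part of tissue make-up or of RNA input in the ratios of Gata2, Tal1 and Sox14 was not tested. With 1 library on each side these ratios describe 2 libraries and not a condition.

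**Figure D5:**
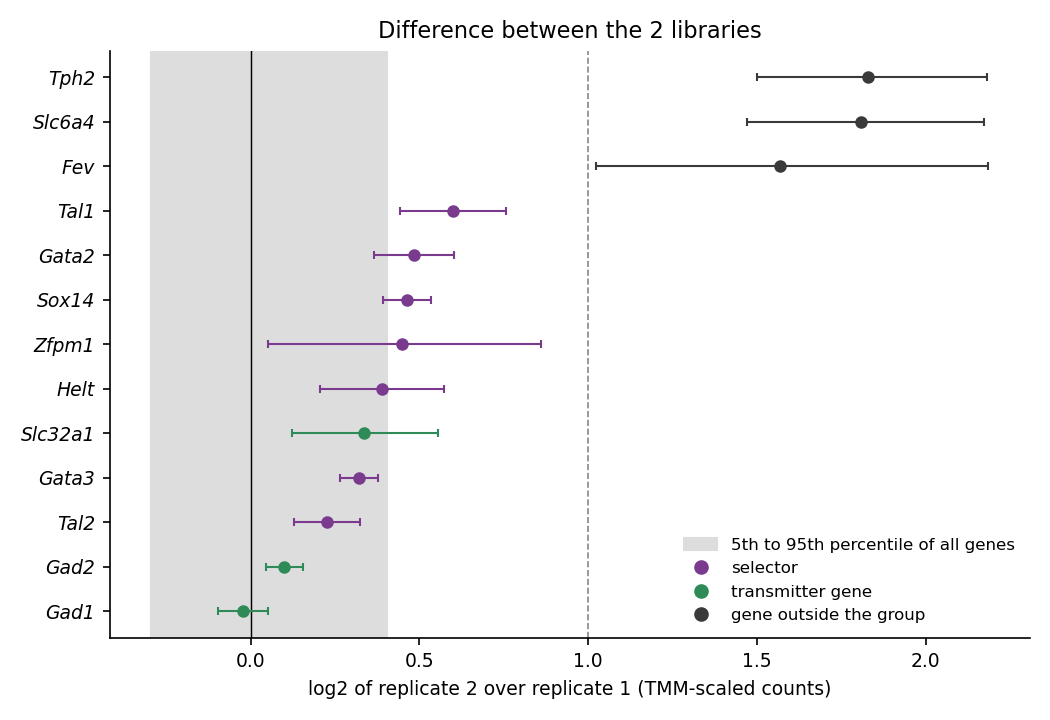
Log2 ratio of TMM-scaled expected counts, replicate 2 over replicate 1, for the 10 genes and for the 3 serotonergic genes past 2-fold. Bars are exact 95% counting intervals, the grey band is the 5th to 95th percentile of all 14361 genes and the dashed line marks 2-fold. All 7 regulators lie to the right of 0, Tal1 furthest at 0.60, and Gad1 lies at −0.02.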

How the data were processed

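Total RNA-seq of 2 libraries was analysed from tables on assembly mm10 with GENCODE M4, per the notes deposited beside them. The deposited expected counts are estimates of reads for each gene and transcript, per the file headers. The deposited TPM values sum to one total per library, of which spike-ins and tRNA entries are part. The deposited percent values are each transcript's share of its gene, per the file headers. The aligner, quantifier, versions, filters and strand of counting are not given in the sources used.

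Symbols came from GENCODE M21 of GRCm38, which matched 42462 of 43346 genes by identifier. Expected counts of genes were rounded and scaled by TMM (edgeR 4.0.16, R 4.3.3). With 1 library on each side no test was run, so genes were counted at 2-fold or more with a mean count of at least 50. Ratios carry exact (Clopper-Pearson) 95% intervals, which cover counting error only, since the reads have no molecular identifiers. The labels do not say that the samples came from separate litters, so the spread may be technical.

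Pairs were taken as differences of log2(TPM + 0.1), which understates differences of low genes. Genes named were the 10 described, those of the 10 pairs, the top 3 of each list by mean TPM and any past 2-fold, genes overlapping one of the 10, and transcripts with at least 5% of a gene. Klf1, Gata4, Gata5, Ptf1a and the transcripts Tal1-203, Gad1-203 and Gad1-207 were named after their values were seen. Some genes and 1 pair that this rule takes are not reported here. Members and lists were chosen with earlier results of these data known. Other settings used size factors from DESeq2 1.42.0, library totals, TPM ratios, other pseudocounts and minimums, posterior means and single libraries.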

Additional observations from a re-analysis of the deposited data

Results flagged for a closer look

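Spike-in RNA, which is compared with no gene above, took 4.06% of the expected reads in replicate 2 and 2.22% in replicate 1. It was listed here because it is signal outside the measured genes. It made up 9.39% of deposited TPM in replicate 2 and 5.36% in replicate 1 and so is part of the scale of every TPM given. TPM rescaled over genes alone moved no pair of genes by more than its SD between the libraries. That outcome was fixed, because rescaling multiplies both genes by the same factor, which cancels apart from the added 0.1. Rescaling also raised the level of every gene, by one factor in each library. Of the levels, 2 moved by more than their SD and 8 did not, a division that reflects the size of each SD. Gata3, for example, went from 85.4 to 92.4 TPM, within its SD of 11.0 TPM. The mean of Gad1 went from 48.7 to 52.6 TPM and that of Gad2 from 68.1 to 73.6 TPM.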

How the results depend on the processing

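Counts of detected genes, of 2-fold differences at other scalings and count minimums, and of shared leading transcripts stayed within 1.5 times their values. At 1.5-fold, 1 gene (Tal1) differed between the libraries in place of 0. The median log2 ratio ran between 0.31 (TPM ratio) and 0.38 (library totals). Some pairs moved by more than the SD between libraries, and none reversed. With a pseudocount of 1, Slc32a1 over Gad2 was −3.33, Zfpm1 over Zfpm2 −2.48, Gata2 over Gata1 3.88 and Tal1 over Lyl1 1.62. With posterior mean TPM, Gad1 over Gad2 was −0.41, Zfpm1 over Zfpm2 −2.63 and Gata2 over Gata1 4.90. Over the full-length coding transcripts alone, an alternative chosen after seeing the data, Gad1 over Gad2 was −1.70, since that measure leaves out Gad1-206 and Gad2-202. The pseudocount weighs most where a gene of the pair is low, as Gata1 is, and the cause of the moves with the posterior mean was not tested. By the posterior mean, Zfpm1-201 took a mean of 73.0% of Zfpm1 in place of 100%. Leaving out replicate 1 or replicate 2 moved no pair by more than its SD, which 2 values cannot exceed. No paired analysis was possible because there is 1 group. Few reads limit the precision of Zfpm1 and of Tal1-203.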
